A study of Mus musculus with 4 samples.

Results

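The transcription factor p53 (gene Trp53) and 9 genes that act in its stress response were followed in pancreatic islets of KO and WT mice. The set was given as a list of symbols: Trp53, Mdm2, Ccng1, Bax, Bbc3, Trp53inp1, Zmat3, Phlda3, Plk2 and Plk3. All 10 were found in the deposited table, among 22481 gene symbols, with 1 row each. The KO group was 2 libraries from islets labelled Ngn3Mettls KO, and the WT group was 2 libraries from wild-type islets. All mice were of the 129sv strain and 2 weeks old, and each library pooled more than 400 islets. The labels do not spell out which gene or exons were removed, in which cells, or how many animals gave a pool. The p-values therefore measure the spread between these pools, which may be partly technical.

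In a cell without damage, p53 protein is kept scarce by Mdm2, a ubiquitin ligase that marks it for destruction. DNA damage, ribosome stress or oncogene signals free p53, which then binds its response elements and switches on genes for cell cycle arrest, repair and apoptosis. Mdm2 is itself a p53 target, so the pair forms a feedback loop. Since p53 is controlled mainly as a protein, the level of Trp53 mRNA says little about its activity, and target transcripts are the usual readout. In beta cells, p53 and its targets have been studied in cell loss under metabolic and genotoxic stress.

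Neither Trp53 nor any of the other 9 genes passed edgeR's test across all genes, and their directions were mixed. DESeq2, and edgeR with the replicate number as a block, called 1 of them, Plk3. Across all genes tested, DESeq2 called 1.16% and the fit with the block called 214 of 12789. On counts Plk3, a stress-response kinase, stood furthest from WT, at a mean of 4.29 CPM in KO islets and 14.6 CPM in WT islets (29.4% of the WT mean). CPM here means counts scaled to 1000000 per library after TMM normalisation, which is used below to compare 1 gene between libraries. The deposited FPKM gives a level per transcript length, scaled per library. In FPKM, Phlda3 stood slightly further from WT than Plk3 (log2 ratio of the group means -1.80 for Phlda3 and -1.72 for Plk3). On counts Zmat3, Ccng1 and Phlda3 also had both KO libraries below both WT libraries, at 75.6%, 78.0% and 53.7% of the WT mean. Of all genes tested, 22.3% had both KO libraries below both WT libraries. Trp53, Mdm2, Bax, Bbc3, Trp53inp1 and Plk2 had groups that overlapped, with KO means between 86.6% and 110.8% of the WT mean.

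The p53 response element consists of a pair of half-sites of 10 letters each, separated by a short spacer. The upstream sequences of 5 members are shown. Those of Ccng1, Bax and Mdm2 are shown for an exact match to the half-site consensus, which Trp53, not shown, carries too. Those of Plk3 and Phlda3 are shown because these genes had the lowest KO level relative to WT. Neither carries an exact half-site in this window, and Plk3 holds a pair with 3 mismatches. Of the members with an exact half-site, Trp53, Mdm2 and Bax had overlapping groups, and Ccng1 had both KO libraries below both WT libraries. Plk2 and Bbc3 carry no exact half-site and had overlapping groups. Whether a match goes with the direction of the values was not tested. The sequences are from RefSeq on GRCm38.p6, cover the 250 bases before the transcript start and are written 5′ to 3′ on the gene's strand. Capitals mark exact half-sites and, for Ccng1, Bax and Plk3, the best pair of half-sites at up to 3 mismatches in 20 letters. The regions are chr11:40755287-40755536 (minus strand) for Ccng1, chr7:45466899-45467148 (minus strand) for Bax, chr10:117710759-117711008 (minus strand) for Mdm2, chr4:117133964-117134213 (minus strand) for Plk3 and chr1:135765835-135766084 (plus strand) for Phlda3.
Ccng1: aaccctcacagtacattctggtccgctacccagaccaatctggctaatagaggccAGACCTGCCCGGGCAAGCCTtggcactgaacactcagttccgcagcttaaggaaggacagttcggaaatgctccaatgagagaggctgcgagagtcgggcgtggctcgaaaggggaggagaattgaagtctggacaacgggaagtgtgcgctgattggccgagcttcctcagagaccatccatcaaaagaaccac
Bax: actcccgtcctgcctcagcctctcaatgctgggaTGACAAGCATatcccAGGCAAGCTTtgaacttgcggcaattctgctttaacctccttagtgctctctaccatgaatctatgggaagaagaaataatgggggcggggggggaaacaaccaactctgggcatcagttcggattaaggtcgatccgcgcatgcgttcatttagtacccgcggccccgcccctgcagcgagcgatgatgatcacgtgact
Mdm2: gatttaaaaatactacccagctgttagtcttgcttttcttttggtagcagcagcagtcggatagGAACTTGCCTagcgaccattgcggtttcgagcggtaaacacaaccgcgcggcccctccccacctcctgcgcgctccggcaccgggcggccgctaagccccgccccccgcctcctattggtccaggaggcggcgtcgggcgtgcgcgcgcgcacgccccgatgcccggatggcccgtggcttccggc
Plk3: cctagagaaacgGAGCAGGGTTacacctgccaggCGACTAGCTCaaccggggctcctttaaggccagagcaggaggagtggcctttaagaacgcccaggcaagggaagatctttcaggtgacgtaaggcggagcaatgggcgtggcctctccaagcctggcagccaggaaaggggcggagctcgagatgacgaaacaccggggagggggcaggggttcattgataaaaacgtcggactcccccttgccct
Phlda3: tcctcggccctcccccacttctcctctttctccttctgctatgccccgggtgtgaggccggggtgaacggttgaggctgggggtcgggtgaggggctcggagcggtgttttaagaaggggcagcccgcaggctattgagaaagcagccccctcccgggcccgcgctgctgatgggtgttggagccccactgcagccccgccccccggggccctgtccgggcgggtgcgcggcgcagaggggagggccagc

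RefSeq promoters, each reaching from 250 bases before to 50 bases after the start, were found for 8 of the 10 members, which have 10 such windows because Bbc3 has 3 starts. Trp53inp1 and Zmat3 are named only. An exact half-site lay in 4 of the 10 windows, belonging to 4 of the 8 members (Trp53, Mdm2, Ccng1 and Bax). Of 32841 promoters of the same length, 8.36% hold one. The half-site consensus is its own reverse complement, so both strands were covered. A pair of half-sites could have a spacer of 0 to 13 letters and up to 3 mismatches in 20 letters. The central C and G of each were kept. Such a pair, which may include an exact half-site, lay in 6 of the 10 windows, from 5 members, against 15.6% of all promoters. In Ccng1 the pair had 1 mismatch and no spacer, at -195 to -176 from the start. In Bax it had 2 mismatches and a spacer of 5, and in Plk3 and Trp53 it had 3 mismatches with spacers of 12 and 13. In the first window of Bbc3 it had 3 mismatches and no spacer, and in the second 3 mismatches and a spacer of 2. Neither pattern was found in the windows of Phlda3 and Plk2. A match is a description of letters and not a sign of binding, and an element outside the window would be missed.

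The depth behind the values was 4057724 to 5132726 fragments in the KO libraries and 4347110 to 5232235 in the WT libraries. Mettl3 and Mettl14, the genes of the m6A methyltransferase core that the label may point to, did not pass. Mettl3 measured 18.6 and 17.2 CPM in the KO pools, against 29.3 and 17.1 CPM in the WT pools, and Mettl14 measured 14.1 and 15.6 CPM in the KO pools, against 21.4 and 21.8 CPM in the WT pools. A gene's total does not check a deletion of single exons. Hormone genes of islets were the most abundant markers in all libraries. Summed beta cell markers were at 42676 and 44251 CPM in the KO pools, against 61216 and 44914 CPM in the WT pools (8 of 8 tested, 7 with a negative log2 fold change, Mafa and Nkx6-1 called lower). The positive one, named after its values were seen, was Iapp (log2 fold change 0.52, adjusted p = 0.122 by edgeR). Iapp measured 10597 and 11705 CPM in the KO pools, against 7817 and 7683 CPM in the WT pools. Alpha cell markers were at 48085 and 60650 CPM in the KO pools, against 41982 and 44120 CPM in the WT pools (5 of 5 tested, 4 positive, none called). PP and epsilon cell markers were at 2076 and 1444 CPM in the KO pools, against 1139 and 946 CPM in the WT pools (3 of 3 tested, all positive, Ppy called higher), and Schwann and neural markers at 227 and 225 CPM in the KO pools, against 163 and 209 CPM in the WT pools (4 of 6 tested, all positive, none called). Macrophage and immune markers were at 168 and 105 CPM in the KO pools, against 113 and 62.4 CPM in the WT pools (7 of 8 tested, all positive, median log2 fold change 0.60, none called). C1qa, named after its values were seen, had an unadjusted p of 0.00593 and an adjusted p of 0.212 by edgeR. Of the 7 tested it was the 1 marker under an unadjusted p of 0.05, where 12.6% of all genes tested were. The summed markers of immune, delta, acinar, ductal, endothelial, mesenchymal and red blood cells overlapped between the groups, with all 4 red blood cell markers and 6 of 7 acinar markers negative. The marker of highest FPKM was Ins2 for beta, Gcg for alpha, Sst for delta, Pyy for PP and epsilon, Ctrb1 for acinar, Krt7 for ductal, Cd74 for immune, Plvap for endothelial, Sparc for mesenchymal, Mbp for Schwann and Hbb-bs for red blood cells. No marker of these lists was at 0 in all 4 libraries. In bulk islets, fewer cells of a type and less RNA per cell cannot be told apart, and the part of these shifts in the values below was not tested.

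Measured per transcript length, the members spanned about a decade of expression. FPKM averaged 37.3 over the 4 libraries for Mdm2, 31.8 for Trp53inp1 and 31.3 for Ccng1. Bax followed at 21.1, Trp53 at 15.4, Plk2 at 12.1 and Zmat3 at 11.3 FPKM. Phlda3, Plk3 and Bbc3 were the lowest, at 3.85, 3.50 and 2.99 FPKM. Their order differed between the groups: in KO the means were 1.71 FPKM for Phlda3, 1.63 for Plk3 and 3.33 for Bbc3, and in WT they were 5.99, 5.37 and 2.66 FPKM. The ranges over the 4 libraries overlapped between neighbours in this order except between Bax and Trp53, between Trp53 and Plk2 and between Zmat3 and Phlda3. The first of these gaps was narrow, with a lowest Bax value of 18.7 and a highest Trp53 value of 18.6 FPKM, and the second was narrower still, at 13.81 and 13.79 FPKM.

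**Figure D1:**
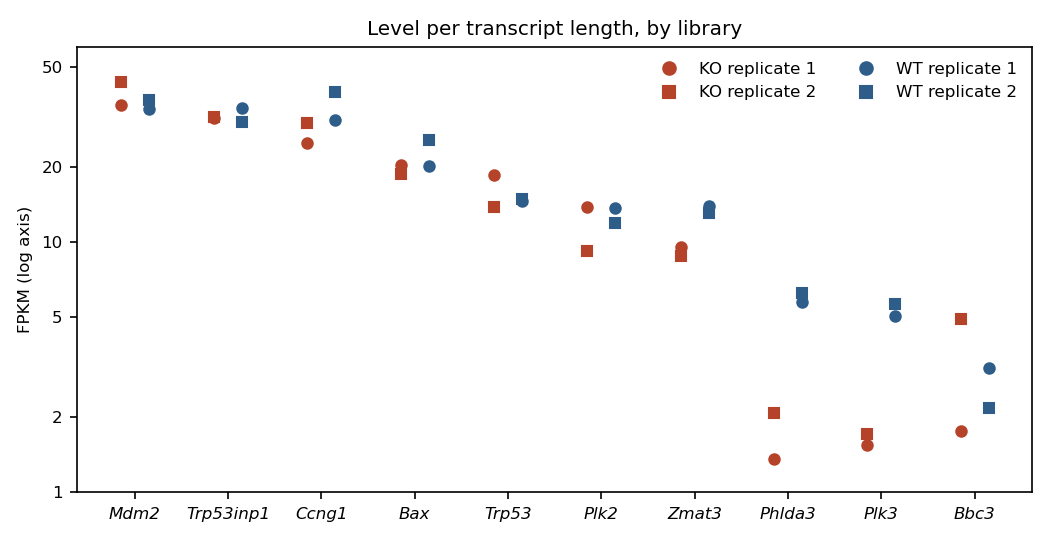
FPKM of the 10 genes in each library, on a log axis and ordered by the mean over 4 libraries, with KO libraries left of WT libraries within each gene. Phlda3, Plk3 and Zmat3 have both KO points below both WT points by more than the spread within either group, and Bbc3 has the widest spread within KO.

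Across all genes, edgeR's quasi-likelihood test called 29 of 12789 genes at a Benjamini-Hochberg adjusted p under 0.05. All 10 members passed the filter on low counts, and 0 of 10 were called, where 0.227% of all genes tested were. At an unadjusted p under 0.05 edgeR had 2 of 10 members, Plk3 and Zmat3, against 12.6% of all genes, limma on log2(FPKM + 1) had 3 (Plk3, Phlda3 and Zmat3), against 9.35% of all genes, and called 0, against 0% of all genes. DESeq2 had 2 (Plk3 and Zmat3), against 7.38% of all genes, and called 1, Plk3, against 1.16%. Both KO libraries lay below both WT libraries in 4 of 10 members, against 22.3% of all genes, and both lay above in 0 of 10, against 22.7%. The log2 fold change, KO minus WT, was below 0 in 6 members and above 0 in 4, where 49.3% of all genes were below 0. The members' median was -0.17, beside 0.0046 over all genes.

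**Figure D2:**
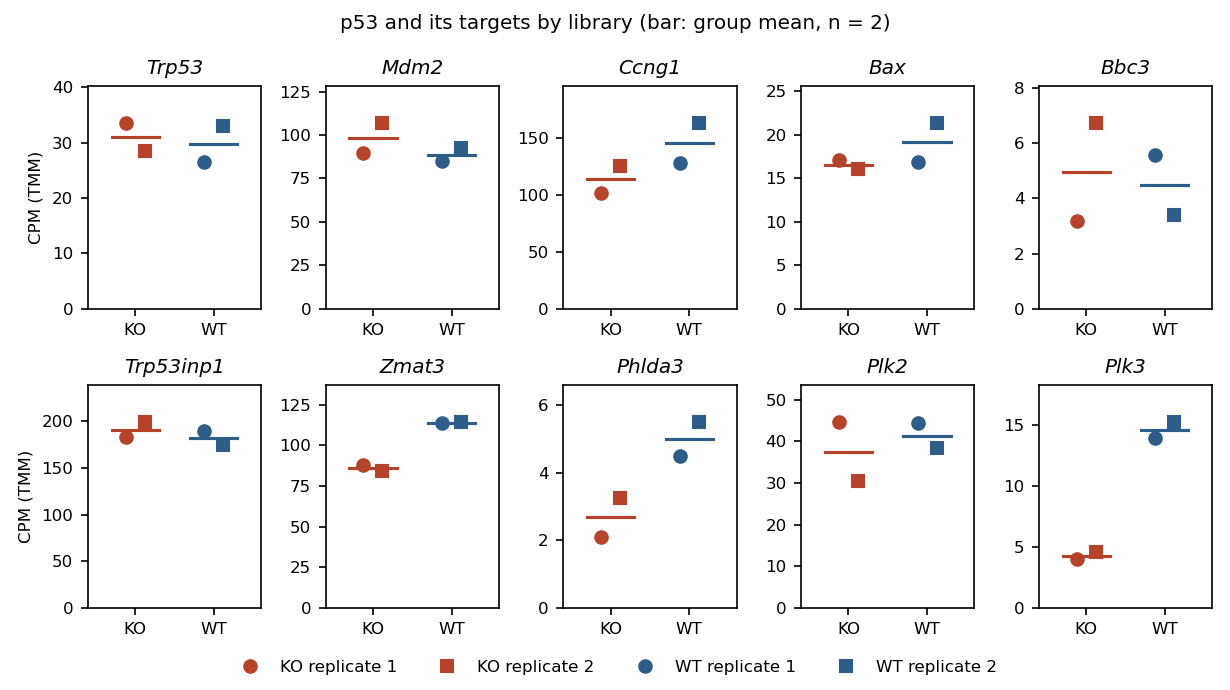
CPM of each gene in KO libraries (left) and WT libraries (right), with a bar at each group's mean (n = 2) and circles and squares for replicates 1 and 2. Each panel has its own linear axis from 0, and Plk3 and Zmat3 show groups that are far apart relative to the spread within them.

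Trp53 (ENSMUSG00000059552, mm10 chromosome 11, 69580359 to 69591873, plus strand) encodes p53 itself. It measured 33.6 and 28.5 CPM in KO replicates 1 and 2, against 26.6 and 33.0 CPM in WT replicates 1 and 2. The groups overlapped, with the highest value in KO replicate 1 and the lowest in WT replicate 1. The log2 fold change was 0.059 ± 0.19 SE, with a 95% interval from -0.39 to 0.50 (edgeR adjusted p = 0.942). Its sign turned to -0.077 without KO replicate 1 and to -0.10 without WT replicate 1.

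The feedback genes pointed in different directions. Mdm2 (ENSMUSG00000020184, mm10 chromosome 10, 117688888 to 117710758, minus strand), the ligase that holds p53 down, measured 89.7 and 106.9 CPM in the KO pools, against 84.8 and 92.6 CPM in the WT pools. KO replicate 2 was the highest library, KO replicate 1 lay between the WT libraries, and the log2 fold change was 0.15 ± 0.14 SE with a 95% interval from -0.17 to 0.46 (edgeR adjusted p = 0.708). Leaving out KO replicate 2 put it at 0.014, and leaving out KO replicate 1 put it at 0.26. The ratio of Mdm2 to Trp53 in FPKM was 1.898 and 3.15 in the KO libraries and 2.32 and 2.49 in the WT libraries, so the KO libraries enclosed the WT ones. Ccng1 (ENSMUSG00000020326, mm10 chromosome 11, 40748552 to 40755311, minus strand) encodes cyclin G1, which recruits phosphatase 2A to Mdm2. It measured 101.9 and 125.1 CPM in the KO pools, against 127.9 and 163.1 CPM in the WT pools. Both KO libraries lay below both WT libraries, but KO replicate 2 and WT replicate 1 nearly met, and the log2 fold change was -0.36 ± 0.16 SE with a 95% interval from -0.73 to 0.016 (edgeR adjusted p = 0.418). It was -0.53 without WT replicate 1 and -0.17 without WT replicate 2.

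None of the death genes passed, and the groups overlapped in each. Bax (ENSMUSG00000003873, mm10 chromosome 7, 45461695 to 45466898, minus strand) encodes the effector that opens the outer mitochondrial membrane. It measured 17.1 and 16.1 CPM in the KO pools, against 16.9 and 21.4 CPM in the WT pools. WT replicate 2 stood above the other 3 libraries, which lay close together, and the log2 fold change was -0.21 ± 0.23 SE with a 95% interval from -0.75 to 0.34 (edgeR adjusted p = 0.763). It was -0.027 without WT replicate 2. In the annotation, 192 exonic bases of Bax, 12.2% of them, overlap the protein-coding gene Gm45808 on the same strand. How fragments from these bases were assigned was not examined. Bbc3 (ENSMUSG00000002083, mm10 chromosome 7, 16309616 to 16318205, plus strand) encodes PUMA, a BH3-only protein that neutralises the survival members of the BCL-2 family. It rested on few fragments, 17 and 27 in KO and 29 and 15 in WT, or 3.17 and 6.73 CPM in the KO pools, against 5.57 and 3.38 CPM in the WT pools. The libraries of each group differed more than the groups did, and the log2 fold change was 0.14 ± 0.54 SE with a 95% interval from -1.11 to 1.39 (edgeR adjusted p = 0.949). The interval reaches beyond 1 on the log2 scale in both directions, and the sign was negative without KO replicate 2 (-0.50) and without WT replicate 2 (-0.17). Trp53inp1 (ENSMUSG00000028211, mm10 chromosome 4, 11156431 to 11174379, plus strand), a nuclear and autophagy protein induced by p53, was the member with the most counts. It measured 183 and 199 CPM in the KO pools, against 190 and 175 CPM in the WT pools, with overlapping groups. The log2 fold change was 0.068 ± 0.11 SE with a 95% interval from -0.20 to 0.33 (edgeR adjusted p = 0.854), and limma on log2(FPKM + 1) put it at -0.037.

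Zmat3 and Phlda3 were lower in both KO libraries without passing. Zmat3 (ENSMUSG00000027663, mm10 chromosome 3, 32334796 to 32367438, minus strand) encodes a zinc finger protein that binds RNA and is a direct p53 target. It measured 87.8 and 84.3 CPM in the KO pools, against 113.5 and 114.2 CPM in the WT pools. The libraries of each group nearly coincided and the groups stood apart, at 86.0 ± 2.49 CPM in the KO pools, against 113.9 ± 0.490 CPM in the WT pools (SD, n = 2 each). The log2 fold change was -0.40 ± 0.11 SE with a 95% interval from -0.67 to -0.14, and the edgeR adjusted p was 0.239 (unadjusted 0.00861). Its sign was negative under each of the 13 alternatives run, from -0.55 to -0.38, and none of them called it. The -0.55 came from limma on log2(FPKM + 0.1), and the lowest on counts was -0.45, without KO replicate 1. The FPKM for each count of Zmat3 was 0.0229 and 0.0227 in KO and 0.0262 and 0.0241 in WT, and the cause was not tested.

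Phlda3 (ENSMUSG00000041801, mm10 chromosome 1, 135766119 to 135769136, plus strand) encodes a small pleckstrin homology domain protein that competes with the kinase Akt for membrane lipids. It was covered by 11 and 13 fragments in KO and 23 and 24 in WT, or 2.11 and 3.26 CPM in the KO pools, against 4.497 and 5.498 CPM in the WT pools. Both KO libraries lay below both WT libraries, but the exact 95% Poisson intervals of the fragments, which cover counting error only, overlapped: 5.49 to 19.7 and 6.92 to 22.2 in KO, and 14.6 to 34.5 and 15.4 to 35.7 in WT. The log2 fold change was -0.89 ± 0.50 SE with a 95% interval from -2.05 to 0.27 (edgeR adjusted p = 0.507). Leaving out KO replicate 1 put it at -0.63, and leaving out KO replicate 2 put it at -1.24. The deposited FPKM gave a wider gap, with 1.36 and 2.07 FPKM in KO and 5.73 and 6.24 FPKM in WT, a log2 ratio of the group means of -1.80. The FPKM per count was 0.137 and 0.138 in KO and 0.276 and 0.238 in WT, while for a gene such as Ccng1 it stayed between 0.0514 and 0.0516 in all 4 libraries. The highest over the lowest FPKM per count was 2.02 for Phlda3, and 10.4% of 11799 genes with at least 10 counts in each library exceeded 1.5. The size of the Phlda3 difference depended on whether counts or FPKM were read, and the cause was not tested.

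The kinase genes Plk2 and Plk3 belong to the polo-like family and are induced by stress, with Plk2 a p53 target and Plk3 a kinase known from human cells to phosphorylate p53. Plk2 (ENSMUSG00000021701, mm10 chromosome 13, 110395044 to 110400844, plus strand) measured 44.5 and 30.4 CPM in the KO pools, against 44.3 and 38.3 CPM in the WT pools. Replicate 1 was the higher library in both groups, the groups overlapped, and the log2 fold change was -0.14 ± 0.21 SE with a 95% interval from -0.62 to 0.34 (edgeR adjusted p = 0.829). It turned to 0.11 without KO replicate 2 and was -0.45 without KO replicate 1.

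Plk3 (ENSMUSG00000028680, mm10 chromosome 4, 117126794 to 117133963, minus strand, as the table gives the locus) measured 4.01 and 4.56 CPM in the KO pools, against 13.9 and 15.2 CPM in the WT pools. These values rest on 21 and 18 fragments in KO and 72 and 66 in WT, whose exact 95% Poisson intervals were 12.999 to 32.1 and 10.7 to 28.4 in KO, and 56.3 to 90.7 and 51.04 to 84.0 in WT. Both KO libraries were far below both WT libraries, and the libraries of each group lay within 1.14-fold in KO and 1.09-fold in WT. The means were 4.29 ± 0.390 CPM in the KO pools, against 14.6 ± 0.923 CPM in the WT pools (SD, n = 2 each), 3.40-fold lower in KO. The log2 fold change was -1.76 ± 0.32 SE with a 95% interval from -2.51 to -1.01, rank 32 from the lowest of 12789 genes, and the edgeR adjusted p was 0.114 (unadjusted 0.000756). DESeq2 called it on the same counts, with an adjusted p of 0.0491 close to the threshold, as did edgeR with the replicate number as a block (adjusted p = 0.0439), and limma on log2(FPKM + 1) did not (adjusted p = 0.420). Leaving out 1 library at a time kept the log2 fold change between -1.86 and -1.68, with adjusted p-values from 0.0687 to 0.374. In the annotation, 84 exonic bases of Plk3, 3.32% of them, overlap Tctex1d4 on the opposite strand, which the table gives the same locus, and the sources used here do not say whether counting used strand.

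The pair of paralogues can be read against each other within a library. In FPKM, Plk2 exceeded Plk3 by 8.94-fold and 5.36-fold in the KO libraries, and by 2.68-fold and 2.11-fold in the WT libraries. The ratio was higher in both KO libraries than in both WT libraries, but with 2 libraries per group no exact permutation test can pass, and it was not tested. Plk1 and Plk4, which act in mitosis and centriole duplication, did not pass (log2 fold changes -0.064 and 0.48). Plk5, the remaining family member, had too few counts to be tested. As Plk2 and Plk3 are also known as early response genes, the summed level of 19 tested immediate early genes was set beside them: 929 and 608 CPM in the KO pools, against 860 and 499 CPM in the WT pools. That sum was higher in replicate 1 of each group, as was Plk2, while Plk3 was higher in replicate 2 of each. A link between the sum and either kinase was not tested. Of the 19 genes 0 were called, 8 had a negative log2 fold change, and Fos measured 103 and 35.6 CPM in the KO pools, against 88.5 and 17.8 CPM in the WT pools. Both KO libraries lay below both WT libraries in 3, against 22.3% of all genes, and above in 2, against 22.7%. The 3 lower ones, named after their values were seen, were Nr4a2 (-0.76), Atf3 (-1.06) and Ier3 (-0.98).

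**Figure D3:**
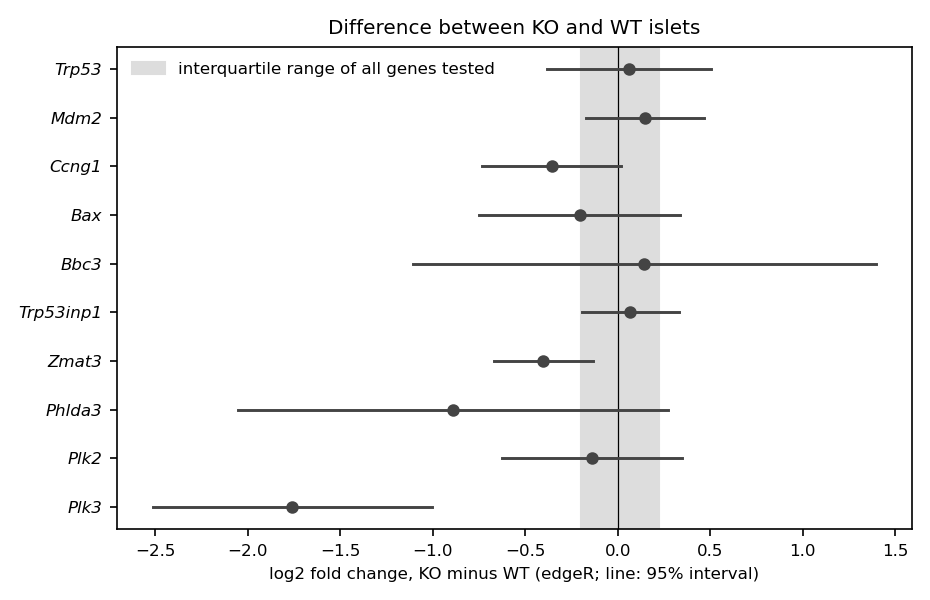
Log2 fold change, KO minus WT, of each gene from edgeR (point) with its 95% interval (line), above a grey band that spans the interquartile range of all 12789 genes tested. The intervals of Plk3 and Zmat3 lie below 0, the other 8 include 0, and Bbc3 and Phlda3 have the widest.

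The wider p53 network was read from lists of regulators and further targets, and edgeR called no gene of these lists. Of 22 listed p53 family members and regulators 19 were tested, 12 with a negative and 7 with a positive log2 fold change (median -0.043, beside 0.0046 over all genes). The deubiquitinase gene Usp7 was at -0.064 and the p53-binding repair gene Trp53bp1 at -0.25 (unadjusted p = 0.0460, adjusted p = 0.383, edgeR). Mdm4, the partner of Mdm2 that masks p53's activation domain, singled out once its values had been seen, measured 50.6 and 52.998 CPM in the KO pools, against 87.4 and 65.3 CPM in the WT pools. Its log2 fold change was -0.56 ± 0.17 SE (edgeR adjusted p = 0.259), and both KO libraries lay below both WT libraries. Trp73, a p53 relative, was listed at 0 in every library, and Trp63 and Cdkn2a had too few counts to be tested.

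Of 19 further targets in arrest and DNA repair 17 were tested, 7 negative and 10 positive (median 0.037). Btg2, an antiproliferative gene, was at 0.24, and Rrm2b, a ribonucleotide reductase subunit, at 0.037. Cdkn1a, which encodes the arrest protein p21 and is a classic p53 target, is named after its values were seen. It measured 17.1 and 21.5 CPM in the KO pools, against 23.6 and 27.3 CPM in the WT pools, with both KO libraries below both WT libraries and a log2 fold change of -0.40 (SE 0.21, adjusted p = 0.495 by edgeR). In this list 2 genes were higher and 0 were lower at an unadjusted p under 0.05, where 6.51% of all genes tested were higher. The higher ones, also named from their values, were Ccng2, a relative of Ccng1 that encodes cyclin G2 (0.66), and the tetraspanin gene Cd82 (0.43), and both had the KO libraries above the WT libraries.

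Of 25 further targets in death, metabolism and stress 23 were tested, 13 negative and 10 positive (median -0.018). Trp53inp2, the paralogue of Trp53inp1 that acts in autophagy, measured 271 and 241 CPM in the KO pools, against 417 and 321 CPM in the WT pools. Both KO libraries lay below both WT libraries, at a log2 fold change of -0.53 (SE 0.15, adjusted p = 0.239 by edgeR), whereas Trp53inp1 had overlapping groups; the difference between the paralogues was not tested. Ei24, the other gene named by level, was at -0.016. In this list 5 genes were lower and 1 was higher at an unadjusted p under 0.05, where 6.04% of all genes tested were lower. The lower ones, named after their values were seen, were the death receptor gene Eda2r (-1.41), the sulfatase gene Sulf2 (-1.13), 9630033F20Rik (-0.99), which is the table's symbol for Tigar, a regulator of glycolysis, Trp53inp2 and the stress gene Sesn3 (-0.35), and the higher one was Tnfaip8 (0.62).

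Among the BCL-2 family 11 of 14 listed genes were tested, 4 negative and 7 positive (median 0.22). The survival gene Mcl1 measured 197 and 197 CPM in the KO pools, against 176 and 161 CPM in the WT pools, with both KO libraries above both WT libraries (log2 fold change 0.22, SE 0.11, adjusted p = 0.454 by edgeR), and Bcl2l2 was at 0.043. Bcl2l1, which encodes the survival protein Bcl-xL and is singled out once its values had been seen, measured 67.3 and 91.2 CPM in the KO pools, against 59.8 and 52.2 CPM in the WT pools, a log2 fold change of 0.50 (SE 0.18, adjusted p = 0.315 by edgeR). Bmf, a BH3-only death gene that is likewise named from its values, measured 21.7 and 16.5 CPM in the KO pools, against 13.9 and 9.94 CPM in the WT pools (log2 fold change 0.68, SE 0.28, adjusted p = 0.382 by edgeR). These 2, Bcl2l1 and Bmf, were the genes of the list at an unadjusted p under 0.05 by edgeR, and both were higher in KO. Of all genes tested, 12.6% were under that threshold, and 6.51% were under it and higher in KO. The death effector genes Bak1 and Bok, also named after their values were seen, pointed in opposite directions. Bak1 was at 0.49 (SE 0.33), with both KO libraries above both WT libraries. Bok was at -1.48 (SE 0.69, adjusted p = 0.427 by edgeR), with both KO libraries below both WT libraries. Relative to Bax in FPKM, Bcl2l1 was 1.28 and 1.84 in KO and 1.30 and 0.925 in WT, which overlapped, and Mcl1 was 2.38 and 2.52 in KO and 2.13 and 1.55 in WT, which did not. Bax relative to Bak1 was 3.99 and 2.93 in KO and 5.26 and 8.06 in WT, which did not overlap either, and these ratios were not tested. Of the 12 proliferation genes tested, which p53 is known to hold down through p21, 0 were called, with Pcna at -0.19 and Top2a at 0.12 and summed levels of 421 and 308 CPM in the KO pools, against 436 and 225 CPM in the WT pools.

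The table's own annotation assigns 66 symbols to the p53 signalling pathway, 6 of them members (Trp53, Mdm2, Ccng1, Bax, Bbc3 and Zmat3). Of the other 60 symbols 52 were tested and 0 were called, with 21 negative and 31 positive log2 fold changes and a median of 0.032. The annotation was consulted after the values were seen.

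**Figure D4:**
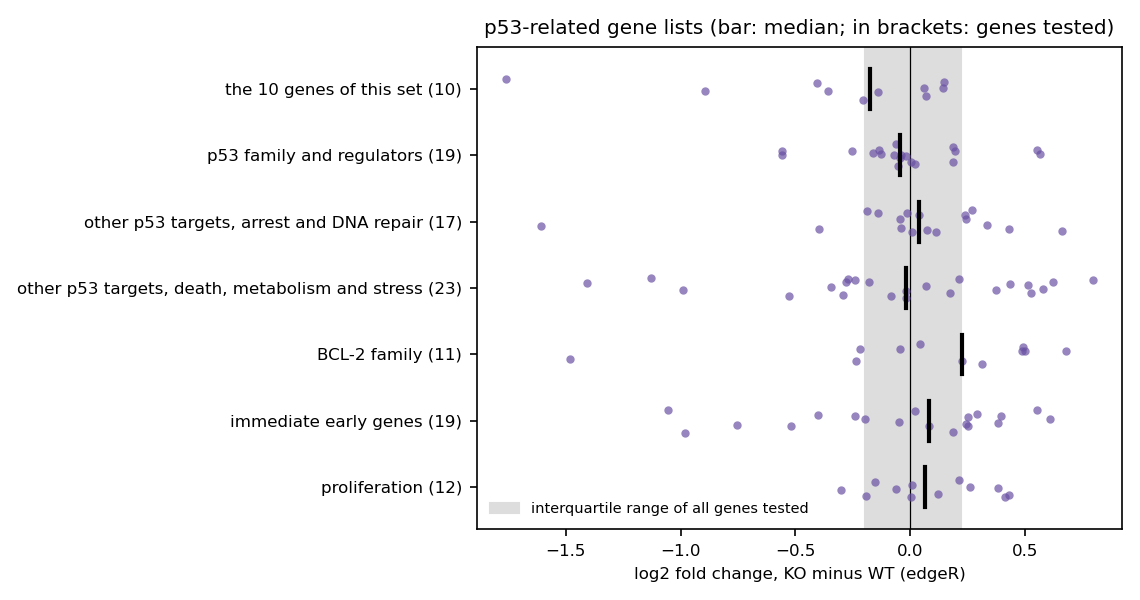
Log2 fold change, KO minus WT, of every tested gene (point) in the 10-gene set and in 6 related lists, with a bar at each list's median and a grey band for the interquartile range of all genes tested. The medians run from -0.17 for the 10 genes to 0.22 for the BCL-2 family, and the 10-gene set holds the lowest single value, that of Plk3.

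**Figure D5:**
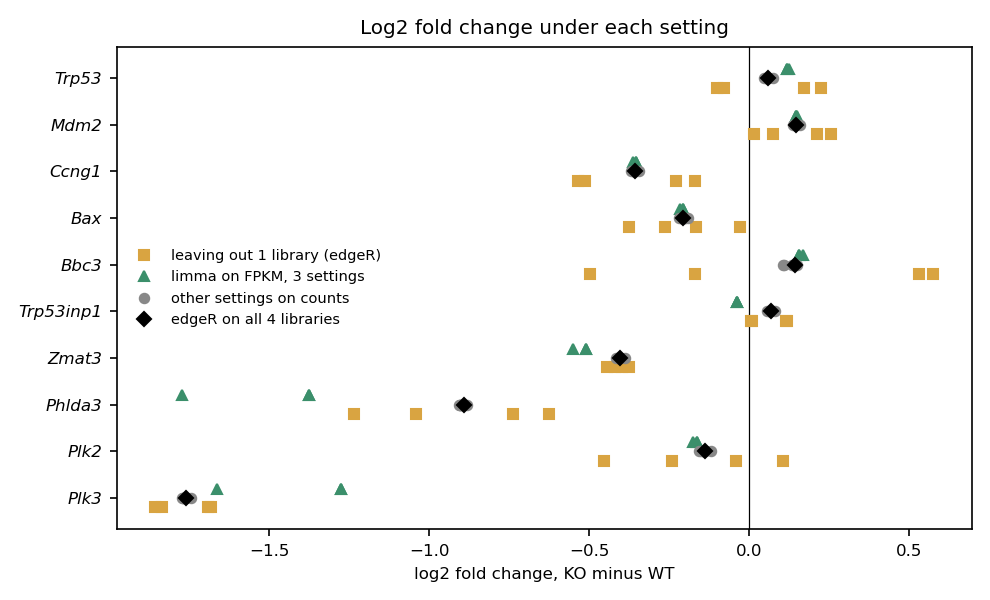
Log2 fold change, KO minus WT, of each gene under each setting: edgeR on all 4 libraries (diamond), 4 fits that leave out 1 library (squares), 3 limma fits on FPKM (triangles) and 6 other fits on counts (circles). Plk3, Zmat3, Phlda3, Ccng1 and Bax lie below 0 and Mdm2 above 0 in all of them, while Trp53, Bbc3, Trp53inp1 and Plk2 have points on both sides.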

How the data were processed

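Libraries were strand-specific, depleted of ribosomal RNA and read as 150-base paired ends, per the labels' protocols. The submitters' processing notes name HISAT2 2.0.4, cutadapt 1.9.3, Cuffdiff and Cufflinks, with mm10. The authors deposited 1 table with an estimated count and an FPKM per gene and library. The estimated counts deposited by the authors are scaled per library: 92.9% to 93.5% of values up to 1000 fragments came out whole, within 0.1, when divided by a step per library (0.901 to 1.15), and all 40 values of the 10 genes were, which gives the fragments printed.

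Rows sharing a symbol were summed (79 symbols), counts were rounded, filtered with filterByExpr (12789 genes) and normalised with TMM. KO was tested against WT with edgeR 4.0.16's quasi-likelihood test (R 4.3.3), genotype as the only term, two-sided, adjusted by Benjamini-Hochberg over all genes. DESeq2 1.42.0 and limma 3.58.1 on log2(FPKM + 1), at a mean FPKM of at least 1, were alternatives, beside other scalings, filters and a pseudocount of 0.1. Fits were tested on simulated data. edgeR estimated a common biological coefficient of variation of 16.0%.

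The members and lists were chosen with earlier results of these data known. All members are named, with the called genes and the 2 of highest FPKM in each pathway list and the marker of highest FPKM in each marker list; others are marked. Overlaps come from GENCODE M21 (GRCm38).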

Additional observations from a re-analysis of the deposited data

How the results depend on the processing

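Of 130 refits of single members, 118 kept the sign and the side of the threshold, 2 kept the sign with no adjusted p, 2 called Plk3 and 8 turned the sign of members that were not called. With DESeq2 148 genes were called and 1 member, Plk3, with 944 genes at an unadjusted p under 0.05, and 2 members, Bbc3 and Phlda3, had no adjusted p. The 3 limma fits on FPKM called 0 genes and 0 members, with 1173, 1097 and 1435 genes at an unadjusted p under 0.05. Leaving out 1 library at a time gave 10 to 245 calls (the lowest without KO replicate 2 and the highest without WT replicate 2, with 55 when KO replicate 1 and 87 when WT replicate 1 was left out), 0 members called and a members' median from -0.27 to -0.17. With the replicate number as a block in edgeR, 214 genes were called and 1 member, Plk3 (log2 fold change -1.76, adjusted p = 0.0439). Over genes, the difference between replicates 1 and 2 in KO correlated with that in WT at 0.159, but with only 2 pairs and no shared animal, litter or day in the labels, the libraries share only a number. Left-out libraries turned signs, giving ranges of -0.10 to 0.225 for Trp53 (negative without KO replicate 1, -0.077, and without WT replicate 1), of -0.50 to 0.58 for Bbc3 (negative without KO replicate 2 and, at -0.17, without WT replicate 2) and of -0.45 to 0.11 for Plk2 (positive without KO replicate 2). Limma turned Trp53inp1 at a pseudocount of 1 (-0.037, with or without the filter) and 0.1 (-0.038). The causes were not tested. Bbc3, Phlda3 and Plk3 had the fewest fragments, with 11 to 29 fragments in the KO libraries and in Bbc3 and Phlda3 of WT.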
